A study of Bos taurus with 64 samples.

Results

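The translation factors and aminoacyl-tRNA synthetases of the array were taken by gene name: initiation factors (names starting with EIF and a digit), elongation factors (EEF), release factors (ETF1, GSPT), poly(A)-binding proteins (PABPC), ribosomal protein S6 kinases (RPS6K) and names ending in ARS, ARS1 or ARS2. The rule found 34 genes with 35 probes among 5449 gene names and 13285 probes, and it used no measured value. The rule goes by name alone: EIF2C3 is an older name of AGO3, an Argonaute protein of small RNA silencing and no initiation factor. Expression was measured with single-colour Agilent arrays in the longissimus thoracis (LT), which lies along the back and serves posture, and the semitendinosus (ST), which moves the hind limb, of 32 Normand cull cows labelled as 4.5 years old. In each muscle, 16 cows had been transported alone, led through a labyrinth by noisy handlers for 30 min and then slaughtered (stress, called moderated stress in the labels), and 16 had been transported with a companion and handled calmly (limited stress). In each stress group, 8 cows had the EP diet, with vitamin E and plant extracts rich in polyphenols, and 8 the control diet. All the cows were finished for 101 d on a straw and concentrate ration rich in lipids and were transported before slaughter, so no group was an unstressed baseline, and walking and social isolation were not separated within the stress group. The muscles were sampled within 15 min of slaughter. The 32 cows are separate animals by their numbers in the labels, and the p-values for stress and diet measure the spread between them. The main fit of comparisons between the muscles took the 64 arrays as separate, without the pairing by cow.

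Translation starts when initiation factors bring the small ribosomal subunit and the initiator tRNA to the capped end of an mRNA, continues as elongation factors deliver charged tRNAs, and depends on the synthetases that load each tRNA with its amino acid. Cells under stress slow initiation by phosphorylating eIF2, the carrier of the initiator tRNA, and by withholding the cap-binding factor through the mTOR pathway, so much of this control acts on proteins rather than on transcript abundance. Skeletal muscle has its own elongation factor, EEF1A2, which replaces EEF1A1 after birth.

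The transcripts on which the comparisons below turn were EIF1AD, EIF5 and EIF3H, and the probes printed here are those that hold at least 1 reading frame without a stop codon. They are 60 bases long, written 5′ to 3′ as the files give them, and no base is set apart in capitals. EIF1AD is named for its domain related to the initiation factor eIF1A. EIF5 activates the GTPase of eIF2 once the start codon is found. EIF3H is a subunit of eIF3, the scaffold that holds the initiation complex on the small subunit. The EIF1AD and EIF3H probes belong to custom probe sets of the array that carry no gene name and were tied to the gene because a probe of the set shares at least 25 bases in a row with its named probe and with no other gene.
EIF1AD, custom probe 1: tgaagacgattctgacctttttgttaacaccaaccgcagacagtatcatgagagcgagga
EIF1AD, custom probe 2: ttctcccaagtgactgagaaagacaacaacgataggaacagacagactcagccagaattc
EIF1AD, custom probe 3: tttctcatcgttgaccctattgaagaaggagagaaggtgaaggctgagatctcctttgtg
EIF5, named probe: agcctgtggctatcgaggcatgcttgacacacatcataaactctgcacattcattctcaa
EIF3H, custom probe 1: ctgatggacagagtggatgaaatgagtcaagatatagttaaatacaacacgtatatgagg
EIF3H, custom probe 2: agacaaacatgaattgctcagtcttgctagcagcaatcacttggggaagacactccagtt

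The EIF5 probe lies at chr21:68158066-68158125 on the plus strand of the bovine build Btau_3.1 used by the array design, from base 368 of its transcript. The named probe of EIF1AD lies at chr29:45988036-45988095 on the minus strand, from base 978 of the transcript, and the named probe of EIF3H at chr14:45051147-45051206 on the plus strand, from base 1103. The files place 32 of the 35 member probes on this build and do not say which are exonic or in a UTR. A stop codon occurred in all 3 reading frames of 8 of them, the named probes of EIF1AD and EIF3H among them.

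Of the 34 genes, 33 were tested in both muscles, since a probe of each was well above the local background in 11 or more of the 32 arrays per muscle, and 31 of these were above it on all 64 arrays. EIF2S3Y, the Y-linked form of an eIF2 subunit, was well above background on 1 LT and 2 ST arrays of these female animals and was not tested. Its signal had a median of about 3 units in each group and reached 278 units on the LT array of the stressed cow321. MARS, the synthetase for methionine, was above background on 16 LT and 17 ST arrays, and RPS6KA6 (RSK4, a growth factor kinase) on 21 and 17. The arrays of cow321 stood apart: their median correlation with the other arrays of their group was 0.971 in the LT and 0.970 in the ST, where the next lowest arrays of these groups had 0.983 and 0.981. Results that changed without this cow are therefore given both ways. All 12 probes of the muscle fibre markers were well above background on all 64 arrays. Of the markers of other cells, ALAS2 (red blood cells), ITGAM (white blood cells), LEP (fat) and PDGFRA (fibroblasts) were above background on 1 to 5 arrays. Other genes of these cell types did pass the filter. In each muscle, 8 of the 9 fat genes and 7 of the 8 connective tissue genes on the array were tested. Of 4 blood genes, 2 were tested in the LT and 1 in the ST. Each slide held arrays of a single muscle, 4 slides for the LT and 5 for the ST, so the muscle and the slide cannot be told apart. The stress groups were uneven over the slides. An LT slide held 6 limited stress and 2 stressed cows, and an ST slide held 1 and 6. Slide differences (limma, adjusted p below 0.1) were found for 30.8% of all tested LT probes and 12 of the 34 member probes. The ST slides gave 2.79% and 1 member probe. EIF1AD and EIF5 were not among the 12 (limma adjusted p = 0.815 and 0.432). The main fit had no slide term.

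In the LT, stressed cows were compared with cows under limited stress, and 1 of the 33 tested genes was differentially expressed, EIF1AD, whose transcript was lower after stress. With the same rule, an adjusted p under 0.1 for at least 80% of the probes of a gene, 161 of all 4309 gene names tested were called (3.74%), so the members' share of 3.03% was near that of the array. The levels below are the log2 of the signal over the 75th percentile of the array. EIF1AD had a lowest level of -1.72, a median of -1.44 and a highest of -1.18 in the limited stress group. The corresponding levels were -1.88, -1.68 and -1.33 in the stress group. The groups overlapped, but no more than 2 of the 16 stressed cows exceeded the limited stress median. The fitted difference was -0.20 on the log2 scale (SE 0.061, 95% interval -0.33 to -0.08, limma adjusted p = 0.0685), which is 1.15-fold lower. Within each of the 4 LT slides the stressed cows were lower, by differences of -0.15 to -0.37. Without cow321 the difference was -0.21 (limma adjusted p = 0.0643).

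The 5 custom probes of EIF1AD were all lower in the stressed cows as well, by -0.17 to -0.22 in the LT, and between 0 and 4 of the 16 stressed cows were above the limited stress median at each. None of them passed on its own (limma adjusted p from 0.110 to 0.337), whereas 1 of the 5 did in each muscle without cow321 (limma adjusted p = 0.0995 in the LT and 0.0825 in the ST). In the ST the named probe gave -0.11 (SE 0.048, 95% interval -0.21 to -0.01, limma adjusted p = 0.227), with 3 of 16 stressed cows above the limited stress median, and the custom probes gave -0.10 to -0.14. The ST level of cow321, -1.28, was the highest of its group, where the median was -1.77. Without this cow EIF1AD was called in the ST too, at -0.14 (SE 0.041, limma adjusted p = 0.0809), the 1 member called among 3.28% of all gene names called, whereas with unscaled signals the ST difference of all the cows had the opposite sign (0.04). The call in the LT was lost with 3 other scalings of the arrays, with adjusted p from 0.108 to 0.409 and differences from -0.17 to -0.38.

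**Figure D1:**
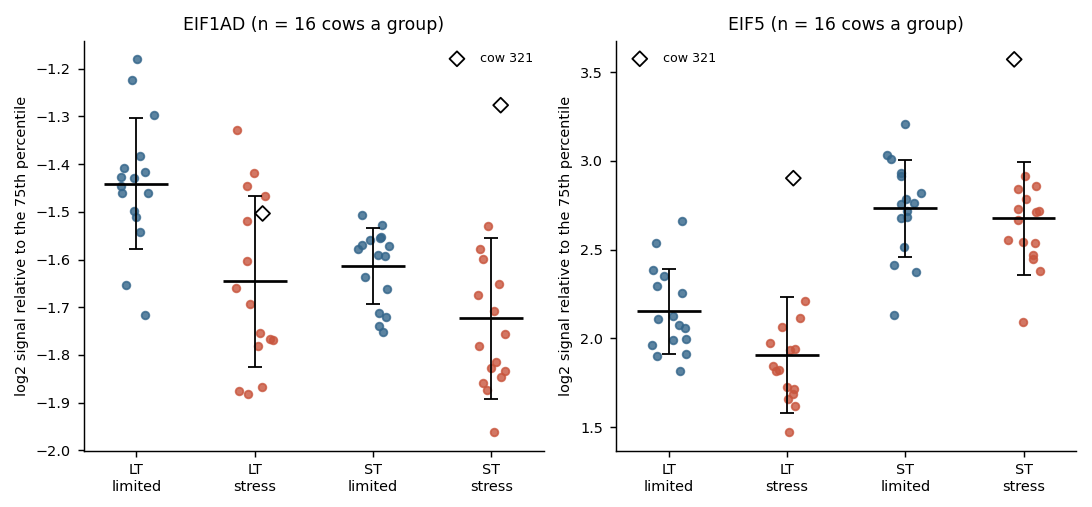
Level of EIF1AD and EIF5 in each cow (log2 signal relative to the 75th percentile of the array) by muscle and stress group, with the mean (line) and SD (bars) of 16 cows. In the LT the mean of the stressed cows is lower for both genes while the groups overlap, and the diamond marks cow321, which is the highest EIF5 value of both stress groups and the highest EIF1AD value of the ST stress group.

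EIF5 was the member with the second smallest p for stress in the LT. Its levels ran from 1.82 over a median of 2.09 to 2.66 in the limited stress group. They ran from 1.47 over a median of 1.84 to 2.90 in the stress group, where the highest value was that of cow321. The fitted difference of -0.25 (SE 0.098, 95% interval -0.445 to -0.047) did not pass with all the cows (limma adjusted p = 0.191), and 3 of 16 stressed cows were above the limited stress median. Without cow321 it was -0.31 (SE 0.080, limma adjusted p = 0.0281), and EIF5 was then called beside EIF1AD, against 3.41% of all gene names. Within the 4 LT slides the differences, cow321 included, ran from -0.22 to -0.28. In the ST the difference was -0.06 (95% interval -0.27 to 0.16), with the opposite sign under the control feature median (0.04) and unscaled signals (0.09). The stress effect of the LT minus that of the ST was -0.19 (95% interval -0.48 to 0.10).

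Of the other genes named as initiation factors, none was called for stress in the LT in the main fit. EIF6, which keeps the large ribosomal subunit from joining too early, gave -0.15 (SE 0.064, limma adjusted p = 0.217), and EIF5A, the factor carrying the modified amino acid hypusine that helps the ribosome over difficult stretches, gave -0.19 (SE 0.089, limma adjusted p = 0.275). EIF5A reached an adjusted p of 0.095 with the slide as a block, at -0.25. EIF2B2, a subunit of the exchange factor that recharges eIF2, gave -0.09 (SE 0.060), and EIF2B3 of the same complex gave -0.03. The 5 subunits of eIF3 ranged from -0.10 to 0.17, the upper end being EIF3B (SE 0.10). The 4 genes named for eIF4 ranged from -0.02 for EIF4G2 (DAP5, a scaffold for initiation without the cap-binding factor) to 0.05 for EIF4A2, a helicase that unwinds the start of the mRNA. EIF2AK3 (PERK), the kinase that phosphorylates eIF2 when proteins misfold in the endoplasmic reticulum, gave 0.05 and 0.24 at its 2 probes (SE 0.076 and 0.15), and neither passed.

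Among the elongation factors, EEF1B2, which recharges eEF1A with GTP, gave -0.15 in the LT (SE 0.064, limma adjusted p = 0.245). EEF1A2, the muscle form, gave -0.06 (95% interval -0.20 to 0.07) and EEF1A1 gave 0.07 (95% interval -0.14 to 0.28). PABPC1, which binds the poly(A) tail, was at 0.17 (95% interval -0.01 to 0.34), and RPS6KA5 (MSK1, a nuclear kinase) at 0.07 (95% interval -0.13 to 0.26). None of the 9 tested synthetases passed in the LT: the 7 cytosolic ones ran from -0.08 for RARS (arginine) to 0.15 for GARS (glycine), with AARS (alanine) at -0.04, and TARS2, the mitochondrial synthetase for threonine, was at -0.03. In all, 21 of the 33 genes were below 0 in the LT (63.6%, against 65.2% of all gene names), with a median difference of -0.02 beside -0.05 over all gene names. Scaled by the control features, the members had a median of -0.20, and that of all probes moved from -0.05 to -0.23.

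In the ST, none of the 33 genes was called for stress, where 153 of 4244 gene names were (3.61%), and 3 member probes had an unadjusted p under 0.05. These were LARS (leucine) at -0.14 (SE 0.060, limma adjusted p = 0.222), TARS (threonine) at -0.11 (SE 0.054, limma adjusted p = 0.270) and EIF1AD, given above. EEF1A2 gave -0.14 (95% interval -0.31 to 0.03), and 2 of the 16 stressed cows were above the limited stress median. The level of EEF1A2 also differed between the ST slides (limma adjusted p = 0.00694). Within the ST slides its stress differences ran from -0.21 to 0.16, the latter on a slide with 1 stressed cow. EIF5A, EIF2B3, EIF3B and EIF4G2 gave -0.10, -0.09, -0.09 and -0.06, PABPC1 -0.01, and RPS6KA6, which was near background, -0.11. The 2 probes of EIF2AK3 gave 0.04 and 0.04. All 7 cytosolic synthetases lay below 0, from -0.22 for MARS, which was near background, to -0.02. With unscaled signals only MARS of these stayed below 0, and with the control feature median AARS, NARS and RARS were above 0. Of the 33 genes, 27 lay below 0 (81.8%, against 69.8% of all gene names), but with unscaled signals the median of the members moved from -0.06 to 0.09.

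**Figure D2:**
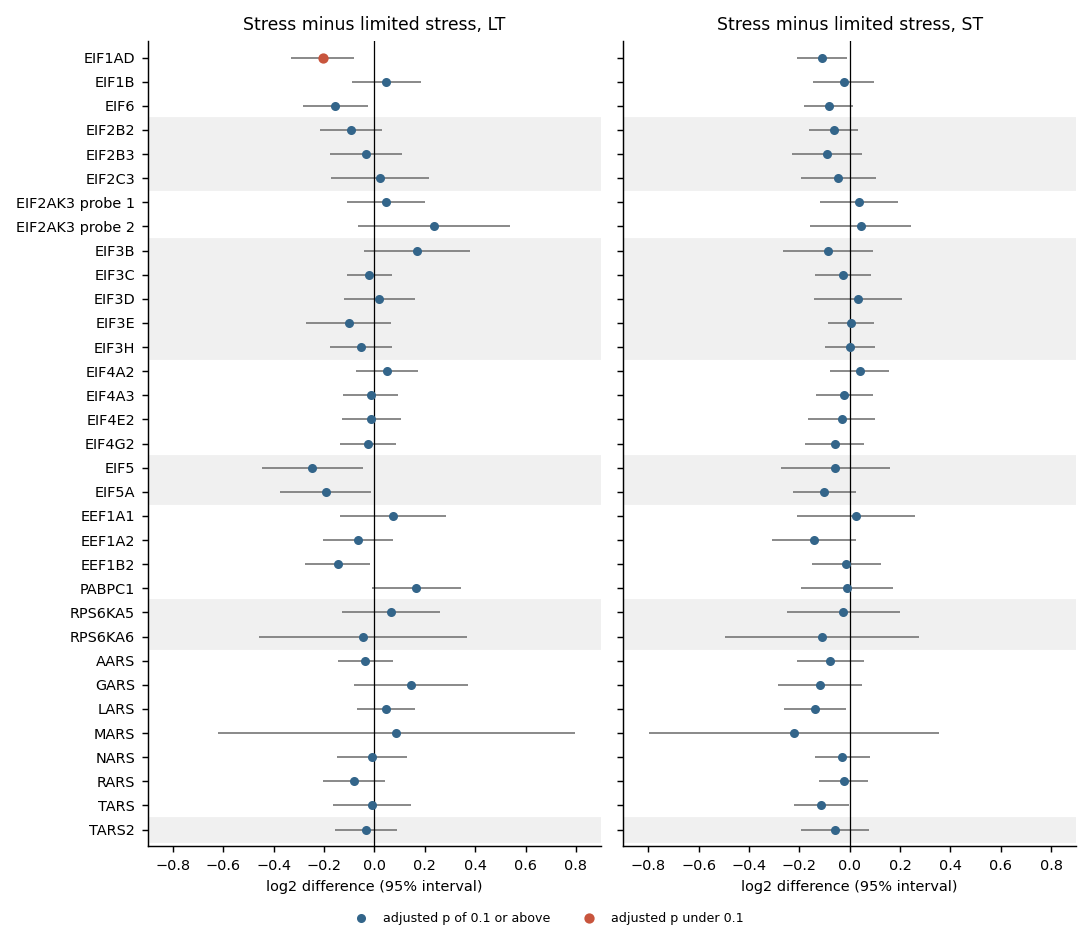
Stress minus limited stress difference of 33 member probes (log2) in the LT and the ST, with its 95% interval, for 16 against 16 cows, ordered by role with shading between roles. EIF1AD in the LT is the 1 probe with an adjusted p under 0.1, and the intervals of MARS and RPS6KA6, which were near background, are the widest.

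The intervals bound what was measured. Of the 34 member probes tested, 28 in the LT and 31 in the ST had a 95% interval wholly inside a 1.3-fold difference in either direction, and 33 in each muscle inside a 1.5-fold difference. The remaining probe was that of MARS. With the control feature median the LT differences lay lower, at -0.42 for EIF5, -0.38 for EIF1AD and -0.37 for EIF5A. Intervals under that scaling were not counted. The spread between cows of a group was smaller for the members than for the array, with a median SD over the member probes of 0.19 (LT) and 0.18 (ST), beside 0.30 and 0.28 over all tested probes.

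The neighbouring pathways were thinly covered by name. Of 28 genes known to rise with the stress factor ATF4 once eIF2 is phosphorylated, 3 were on the array and none passed for stress in either muscle: SHMT2 (serine metabolism) gave -0.14 in the LT and -0.09 in the ST, SLC1A5 (a glutamine carrier) -0.11 and -0.08, and VEGFA (vessel growth) -0.13 and 0.06. Of 44 genes of the mTOR pathway and its energy-sensing inputs, 7 were tested and none passed, with differences from -0.15 to 0.09 in the LT and from -0.17 to 0.05 in the ST. The lowest in the ST was PRKAA1, a catalytic subunit of the energy sensor AMPK (SE 0.075, limma adjusted p = 0.227). FARSB (a phenylalanine synthetase subunit) and NCBP2 (nuclear cap binding) were the only genes of the lists of related synthetase and translation genes to be tested. FARSB gave -0.08 in the LT and -0.02 in the ST, and NCBP2 gave -0.17 and -0.15. Outside the rule, 3 probes were described as genes of the same families, and none was called for stress. That of EIF2AK4 (GCN2, the eIF2 kinase that senses uncharged tRNA) had -0.26 in the LT (SE 0.093, limma adjusted p = 0.149) and -0.30 in the ST (SE 0.098, limma adjusted p = 0.106). That of EIF4B, a helper of the eIF4A helicase, had -0.59 and -0.82 with wide errors (SE 0.46 and 0.42), and that of TARSL2, a threonyl-tRNA synthetase, -0.10 and -0.12 (SE 0.17 and 0.18). The rule found no probe for EEF2, EEF2K, EIF4E, EIF4EBP1, RPS6KB1, ETF1, GSPT1 or WARS, which were not analysed here. Markers of other cells that were called for stress were limited to PCK1, 1 of the 8 tested fat genes, at -0.81 in the ST (limma adjusted p = 0.0771). The 8 fat genes ran from -0.81 to -0.02 in the ST, with a median of -0.49 beside -0.06 over all gene names. In the LT they ran from -0.70 to 0.19, with a median of -0.23 beside -0.05. The part of the fat genes in the results on the members was not tested.

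None of the 33 genes was called for diet in the LT or the ST, and none for a difference between the EP and control diets in the stress effect (0% of all gene names in each of these 4 comparisons with limma). At an unadjusted p under 0.05 there were 2 member probes for diet in the LT, 3 in the ST, 0 for the difference between diets in the stress effect in the LT and 1 in the ST. The share of all tested probes at that threshold is not given, so these counts are not results about the members. Among these probes the smallest p was that of EEF1B2 for diet in the ST, at -0.18 (SE 0.067, limma adjusted p = 0.770). EIF4E2 (4EHP), a cap-binding protein that represses translation, gave 0.13 for the EP minus the control diet in the LT and 0.15 for the ST (SE 0.057 and 0.066), and neither passed (limma adjusted p = 0.979 and 0.896). No member and 0% of all gene names were called for a difference in the stress effect between the LT and the ST. LARS had the smallest p, with 0.05 in the LT against -0.14 in the ST and a difference of 0.19 (95% interval 0.02 to 0.35, limma adjusted p = 0.999).

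Between the muscles, 13 of the 33 genes differed over the 32 cows (39.4%), beside 2187 of 4228 gene names (51.7%), 5 being higher in the LT and 8 lower. The fit did not use the pairing of the muscles by cow, and all 13 stayed called in the fits that did. Directions in this comparison depended on the scaling, since the median of all probes was at -0.02 with the 75th percentile, 0.11 with unscaled signals and 0.17 with the control feature median. The control median and unscaled signals raised the LT minus ST values of the members, so they could not have reversed a positive one. TARS2 was higher in the LT with every scaling run, at 0.27 with normexp and quantile normalization. It ran from -1.14 over a median of -0.61 to -0.29 in the LT and from -1.44 over -0.85 to -0.55 in the ST. The ranges overlapped, and the LT was the higher muscle in 32 of 32 cows. The difference was 0.25 (SE 0.044, limma adjusted p = 3.06e-06), or 1.19-fold. Of the 7 cytosolic synthetases, RARS was called, lower in the LT (-0.10, SE 0.037), with the opposite sign under both the control median and unscaled signals.

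EIF5 showed the largest difference of the members. It ran from 1.47 over a median of 1.98 to 2.90 in the LT and from 2.09 over 2.72 to 3.57 in the ST, and all 32 cows had the higher value in the ST. The fitted difference was -0.68 (SE 0.073, limma adjusted p = 1.51e-11), so the EIF5 probe was 1.60-fold lower in the LT, and it stayed lower at -0.49 with the control median. The result rests on the named probe alone, since no custom set was tied to EIF5. EIF5A was lower by -0.19 (SE 0.054) with the 75th percentile, but lay at -0.0072 with the control median. PABPC1 (-0.18), EIF3C (-0.17), EIF2B2 (-0.10) and the named probe of EIF3H (-0.09) were lower in the LT with the 75th percentile and above 0 with the control median. EIF3E, an eIF3 subunit, ran from 1.87 over a median of 2.21 to 2.65 in the LT and from 2.28 over 2.54 to 2.69 in the ST, where 27 of 32 cows had the higher value. It gave -0.28 (SE 0.046, limma adjusted p = 9.77e-07) and was below 0 with every scaling run, though not called with the control median. Its level differed between the LT slides (limma adjusted p = 2.14e-05): the stress group means per slide lay at 2.35 and 2.41 on a pair of slides and at 2.00 and 2.07 on the other two, and those of limited stress at 2.46 and 2.46 and at 2.13 and 1.98, where the ST slides ran from 2.39 to 2.67. The means of the latter pair lay further below the ST than those of the former, and the difference with the slide as a random block was -0.28 (SE 0.054, limma adjusted p = 2.51e-05). Higher in the LT beside TARS2 were EIF4A3, the helicase of the exon junction complex (0.13), EIF1AD (0.13) and EIF4E2 (0.09), all positive with every scaling run. Of these scalings only normexp with quantile normalization could have reversed them, and it gave 0.15, 0.17 and 0.07. EIF3H and EIF4E2 were no longer called with the slide as a random block (limma adjusted p = 0.113 and 0.216). EIF4E2 was not called either with normexp and quantile normalization (limma adjusted p = 0.118) or without cow321 (limma adjusted p = 0.101). Without this cow, MARS at -0.50 (limma adjusted p = 0.0326) and RPS6KA5 at 0.15 (limma adjusted p = 0.0715) were called too, beside 52.2% of all gene names. MARS was near background and at -0.36 with all the cows. The named probe of EEF1A2 differed by 0.02 (95% interval -0.08 to 0.13) and that of EEF1A1 by 0.09 (95% interval -0.07 to 0.24). Of the 4 custom probes of EEF1A1 that do not overlap the named one, 3 were called higher in the LT, over a range of 0.03 to 0.32. Those of EEF1A2 ran from -0.08 to 0.08, with 1 called lower.

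**Figure D3:**
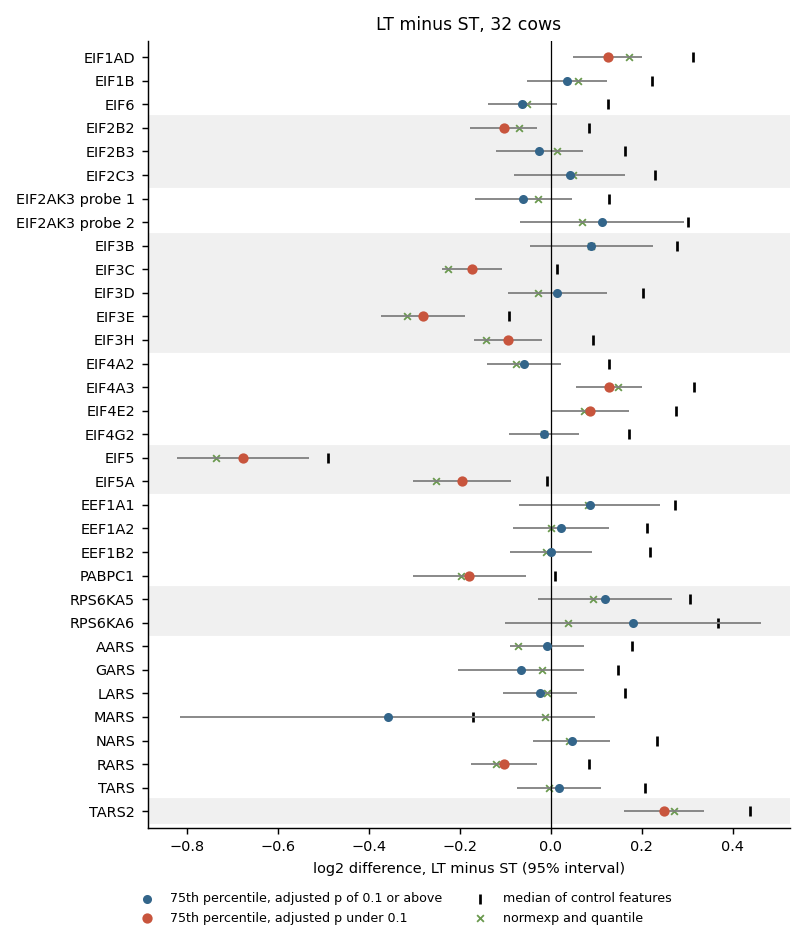
LT minus ST difference of the same 33 member probes (log2) over 32 cows with its 95% interval, and the same difference under 2 other scalings, the control feature median (bars) and normexp with quantile normalization (crosses). EIF5 and EIF3E stay below 0 and TARS2 above 0 in all 3. The control median moves all the values upward and, among the called probes, takes EIF3C, EIF3H, EIF2B2, RARS and PABPC1 across 0.

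**Figure D4:**
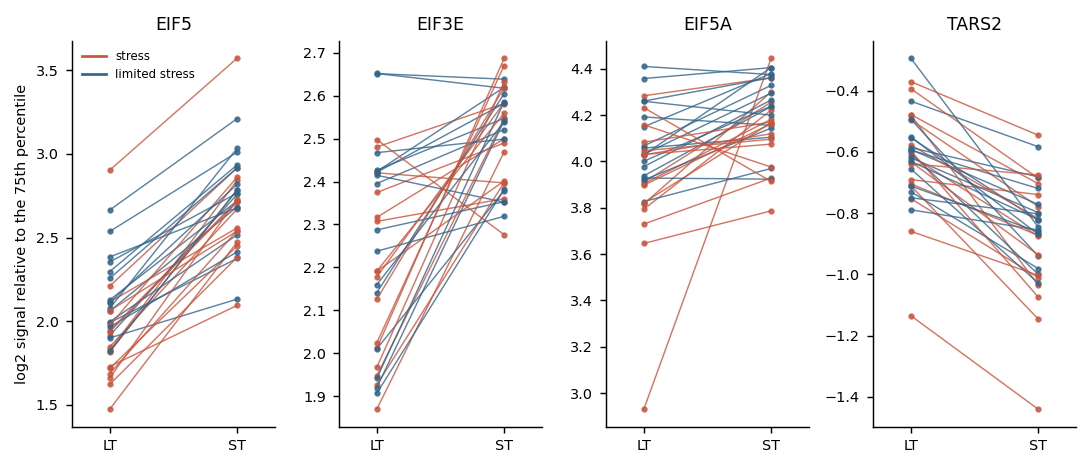
Level of EIF5, EIF3E, EIF5A and TARS2 in the LT and the ST of each cow (log2 signal relative to the 75th percentile), with a line for each of the 32 cows coloured by stress group. Every line rises from LT to ST for EIF5 and falls for TARS2.

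Of the neighbouring pathways, 2 of the 3 genes tied to ATF4 were called higher in the LT with the 75th percentile, SHMT2 at 0.16 and VEGFA at 0.64, and 3 of the 7 mTOR pathway genes lower, FLCN (a regulator of amino acid sensing) at -0.16 and the AMPK subunits PRKAA1 and PRKAG2 at -0.34 and -0.54. Over the array, 925 of 4228 gene names were called higher and 1262 lower (51.7% called), so such counts are not particular to these pathways. NCBP2 was called higher at 0.28 and FARSB, at -0.05, was not called. Of the probes described as family genes, EIF2AK4 was at -0.64 (SE 0.068, limma adjusted p = 8.89e-12), TARSL2 at -0.39 (SE 0.13, limma adjusted p = 0.0077) and EIF4B, not called, at 0.45 (SE 0.32). The fibre and vessel markers differed between the muscles as well, so these values stand beside the differences of the members. Of 8 slow fibre genes tested, 6 were higher in the LT and 1 lower. All 7 fast fibre genes tested were lower in the LT, PVALB by -4.11, and 11 of the 12 muscle fibre markers were lower. These marker directions are those with the 75th percentile, and values under the other scalings are not given. The control feature median moved the median of all probes from -0.02 to 0.17, so small negative marker differences depend on the scaling. Of 6 vessel genes, 5 were higher in the LT. The summed level of the fast fibre probes, relative to the 75th percentile, ran from 439 to 602 over the LT groups and from 84.3 to 653 over the ST groups. That of the slow fibre probes ran from 215 to 358 over the LT groups and from 146 to 341 over the ST groups, and that of the vessel probes from 2.07 to 8.84 and from 1.18 to 10.9. Their part in the differences of the members was not tested, and in bulk muscle fewer cells of a type and less RNA per cell cannot be told apart.

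Probes of the same member disagreed on the muscle difference. The array held 13 custom sets of 5 probes tied to a member, and in 7 of them the probe overlapping the named one gave the lowest LT minus ST difference of the set. The named probe of EIF3H was at -0.09 (above 0 with the control feature median and with unscaled signals) and its overlapping custom probe at -0.09, but the other 4 probes, of which 2 are printed above, were called higher in the LT, from 0.14 to 0.32. For EIF3E the overlapping probe gave -0.20 beside -0.28 for the named one, while the other 4 ran from -0.01 to 0.09 and none was called. EIF4A3 and EIF1AD kept a single direction: their 5 custom probes each were all called higher in the LT, from 0.11 to 0.33 and from 0.20 to 0.36. Over the 13 sets, 22 of the 52 probes that did not overlap a named probe were called higher in the LT and 3 lower, beside 26.6% and 31.6% of all tested probes. With the control feature median the counts were 30 and 0, beside 32.2% and 6.75%, and with normexp and quantile normalization 24 and 1, beside 27.5% and 29.2%. The place of these probes in their transcripts is not given in the files. For stress, none of the 13 sets was called in either muscle.

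**Figure D5:**
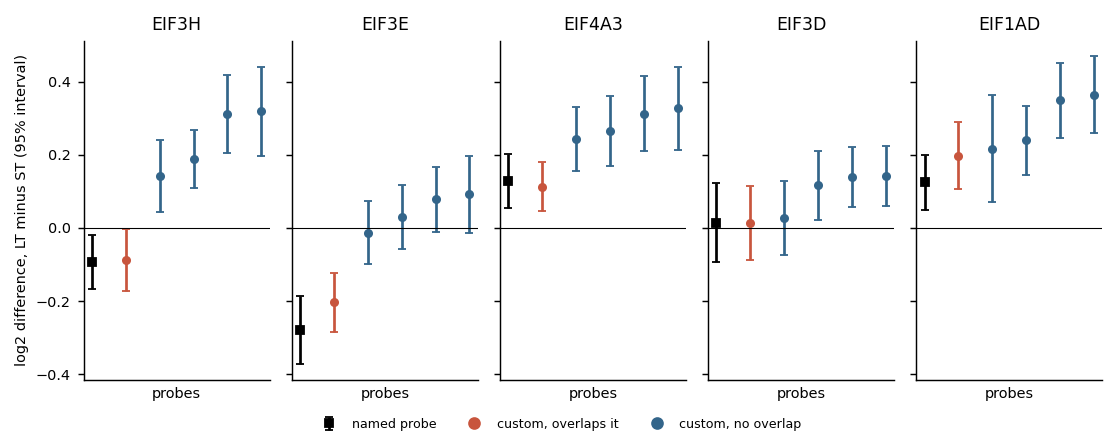
LT minus ST difference (log2, 95% interval, 32 cows) of the named probe of 5 members and of the 5 probes of the matching custom set, of which 1 overlaps the named probe. The 4 other probes of EIF3H lie above 0 from 0.14 to 0.32, where the named and overlapping probes lie at -0.09 (above 0 for the named one with the control feature median), and all the probes of EIF1AD and EIF4A3 lie above 0.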

How the data were processed

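The authors read each array with Agilent Feature Extraction 10.1.1.1. The deposited values are its processed intensities, from which the software had subtracted the background and a spatial trend, replacing values near background by surrogates, with no scaling between arrays. Their log2 was centred on the 75th percentile of the 13414 non-control spots of each array (2470 to 4202 units), since the 536 control features were near background (median 3.24 units). The study's own scaling was by the median intensity of control probes, so the control feature median tried as an alternative is the scaling nearest to its own. Non-uniform and outlier spots were left out, which removed 1 member spot each of GARS and EEF1B2. Precision is limited by how many arrays each group has. Probes were fitted with limma 3.58.1 in R 4.3.3 with 4 group means per muscle, or 8 over 64 arrays between the muscles, with no cow term. Tests were two-sided, with Benjamini-Hochberg adjustment over all the tested probes. The period of slaughter used in the study's model is not in the labels and was left out.

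The fit was tested on simulated data for stress in the LT (10439 probes): it recovered 20.9% of the changes of 0.2 on the log2 scale, 62.7% of those of 0.5 and 93.9% of those of 1. The simulation drew independent normal errors with the spread of each tested LT probe. Its rates are over probes of the whole array, not the members, whose median SD was smaller (0.19 beside 0.30). The cow number pairs the muscles of an animal, and the deviations of the LT and ST of a cow correlated from 0.106 to 0.768 over 32 pairs. The name of the files was kept where the RefSeq table, which held the accession of 30 member probes, gave another symbol (9 probes). The members and lists were chosen with earlier results of these data known. The genes named are the called members, for each role the member with the smallest p for stress in each muscle, the 8 members with the largest muscle difference, and a set list of main factors. EIF6, TARS, MARS, GARS, EIF3H, EIF4E2, the genes of the lists and the 3 probes described as family genes were added after their values were seen, as was the fit without cow321. The values of 1 member are not reported here, although the counts include it.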

Additional observations from a re-analysis of the deposited data

How the results depend on the processing

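Alternatives were other scalings, other filters, slide, scan day or cow as a block, no diet term, gene means and a stricter threshold. Among the counts and medians of the members over these alternatives, 105 values stayed within 1.5 times the count or within the spread between cows, and the 11 that did not are given here. Except without cow321, the share of all gene names called is not given for these alternatives. The counts of calls are therefore not results about the members alone. For stress in the LT, 0 members were called under the control feature median, no scaling, normexp with quantile normalization, or an adjusted p under 0.05. For the same comparison 2 were called with the slide as a fixed block (EIF1AD and EIF5A) and 2 without cow321 (EIF1AD and EIF5). In the ST, 1 member was called without cow321 and 0 otherwise. The number of members differing between the muscles was 7 under the control feature median and 21 under no scaling, beside 13, and the split of higher to lower in the LT moved from 5 and 8 to 6 and 1, and to 19 and 2. Over all tested probes, 32.2% were called higher and 6.75% lower under the control feature median, and 42.2% and 15.3% under no scaling. The median stress difference of the members was -0.199 (LT, control feature median) and 0.0923 (ST, no scaling). Under the control feature median the LT minus ST difference took the opposite sign for EIF2B2 (0.0843), EIF3C (0.0145), EIF3H (0.0939), PABPC1 (0.00892) and RARS (0.085). With no scaling it did so for EIF2B2 (0.0241), EIF3H (0.0337) and RARS (0.0249), and the stress difference of EIF1AD in the ST was 0.0394. These scalings shift all the probes of an array by the same amount, and the cause of the difference between scalings was not tested. With the cow as a replicate block (the pairing of the muscles), 1 member was called for stress in the LT, 0 in the ST and 16 between the muscles, and 14 with the difference of each cow, and both included all the 13 members. The members gained were EIF4A2, EIF6 and RPS6KA5, and EIF6 with the difference, and the block changed no call for stress.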
